A study of Mus musculus with 11 samples.

Results

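Tamoxifen given alone was compared with vehicle in whole stomach of adult C57Bl/6 mice, over all 22180 genes that had a named probe set on the array. The comparison uses 4 of the 11 arrays of the series, chosen by their titles: 2 from mice given tamoxifen at 5 mg per 20 g of body weight for 3 days, and 2 from mice given sunflower oil as vehicle. Injections were daily and into the peritoneum. The mice of these groups were of this strain, with no engineered allele named in the labels. The number of vehicle injections, the interval to tissue collection and whether each array is 1 mouse are unstated in the sources used here. Because the labels call the samples biological replicates without naming separate animals, p-values measure the spread between arrays. That spread was pooled within the groups of all 9 whole-stomach arrays, and was not taken from these 4 alone. The other arrays held whole stomach after rapamycin at 0.6 mg per 20 g for 10 days (3 arrays), after rapamycin plus tamoxifen at the same doses (2 arrays), and isolated parietal cells and the remaining stomach cells (1 array each).

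The acid-secreting part of the mouse stomach is built of glands with 4 main epithelial lineages on one stalk. Pit mucous cells line the surface, mucous neck cells and the dividing progenitors lie below them, parietal cells pump acid along the middle, and chief cells at the base store digestive zymogens. Tamoxifen binds oestrogen receptors and is widely used to switch on inducible Cre enzymes. In mice a high dose is also known to injure the stomach lining, with loss of parietal cells and the appearance of dividing, mucus-making metaplastic glands.

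Values are log2 expression after RMA, a method that summarises the probes of a probe set, so 1 unit is a doubling. A gene is called here when limma, fitted over the 9 whole-stomach arrays, gave a Benjamini-Hochberg adjusted p under 0.05 for tamoxifen against vehicle. The figure after ± is limma's standard error of that log2 change. The array medians were 5.07 and 4.95 in the tamoxifen arrays and 5.09 and 4.98 in the vehicle arrays. Stomach identity was clear on all 4 arrays: the pit cell gene Gkn2 read 13.85 and 13.92 with tamoxifen and 13.85 and 13.89 with vehicle, and the proton pump subunit Atp4b read over 12 on each array.

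One array stood apart. Of 18 measured marker genes of the squamous forestomach, the keratinised upper stomach of the mouse, the mean level was 9.26 on tamoxifen 1 and 4.95 on tamoxifen 2, against 5.30 and 4.86 on the vehicle arrays. Krt4, a keratin of that epithelium, read 11.59 and 3.80 with tamoxifen and 4.03 and 3.87 with vehicle, the widest gap of any gene between the tamoxifen arrays. The cornified-envelope genes Sprr3 and Cnfn and the keratinocyte genes Krtdap and Krt1 had gaps of the same kind, together with the predicted gene Gm94. None of these 6 genes was called. Rapamycin arrays 1 and 2 and both rapamycin plus tamoxifen arrays were also high for the list, between 7.99 and 9.23, and the part of forestomach tissue in the calls was not tested beyond the fits given with the limits. Across genes tamoxifen 2 correlated with vehicle 2 at r = 0.988 and with tamoxifen 1 at 0.971. Tamoxifen 1 correlated with vehicle 1 at 0.973, and vehicle 1 with vehicle 2 at 0.981. Each tamoxifen array was thus closer to the vehicle array of its number than to the other tamoxifen array. Whole pieces of stomach were measured, so fewer cells of a type and less RNA per cell cannot be told apart in any result given here.

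Tamoxifen changed 381 genes, or 1.72% of those tested: 207 rose (0.933%) and 174 fell (0.784%). Their levels did not overlap between the groups, which was true of 27.3% of all genes (6053). Without vehicle 1 the number called was 95, and without tamoxifen 1 it was 213. The other 7 fits that left out 1 array each lay between these. In all 9 of these fits 57 genes kept their call, 41 of them lower and 16 higher, and 76 of the 381 kept it in none. Gene lists are described by their members' calls and their median change. When 1 array was left out the median changed sign in 23 of the 53 lists, and in a further 20 it kept its sign and moved by more than 1.5 times. Apart from the squamous list, the lists that changed sign had medians within 0.22 of 0.

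The balance of rises and falls depended on scaling: rises were the more numerous in the deposited values, while quantile normalization called 180 higher and 209 lower and median centring 144 and 160. Of the genes that fell, 26 changed by more than 2 units and 51 by less than 1, while of those that rose 7 changed by more than 2 and 104 by less than 1. The middle 50% of all genes lay between -0.16 and 0.14, and 1% lay below -0.92 and 1% above 1.14. The smallest called change was 0.67 units, against a median standard error of 0.19 over all genes. There were also 268 genes whose mean changed by at least 1 unit and that were not called. Calls came mostly from bright probe sets. With all genes ranked by mean level and cut into 3 equal groups, 0.122% of the dimmest (below 4.71) were called, against 1.72% of the middle group and 3.31% of the brightest (above 6.83).

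**Figure D1:**
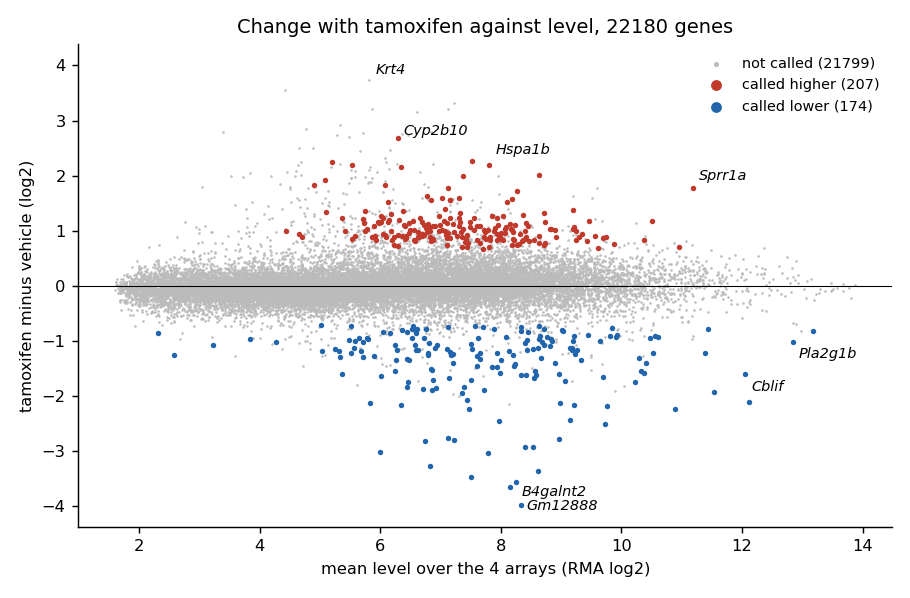
Log2 change, tamoxifen minus vehicle (vertical axis), against the mean RMA log2 level over the 4 arrays (horizontal axis), 1 point per gene, for 22180 genes. The 174 genes called lower reach -3.97 (Gm12888) and the 207 called higher reach 2.68 (Cyp2b10), while Krt4 at 3.74 was not called.

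The largest fall was in Gm12888, a predicted gene with no role given in the files, which read 6.35 and 6.34 with tamoxifen and 10.66 and 9.98 with vehicle, a change of -3.97 ± 0.21 (15.7-fold, adjusted p = 4.02e-04). The largest rise among called genes was in Cyp2b10, a cytochrome P450 that metabolises drugs. It read 8.36 and 6.90 with tamoxifen and 5.25 and 4.66 with vehicle (2.68 ± 0.43, adjusted p = 0.0216). In both genes the groups were far apart, and for Cyp2b10 the tamoxifen arrays also differed from each other by more than the vehicle arrays did. Cyp2b10 did not keep its call in all 9 fits that left out an array.

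**Figure D2:**
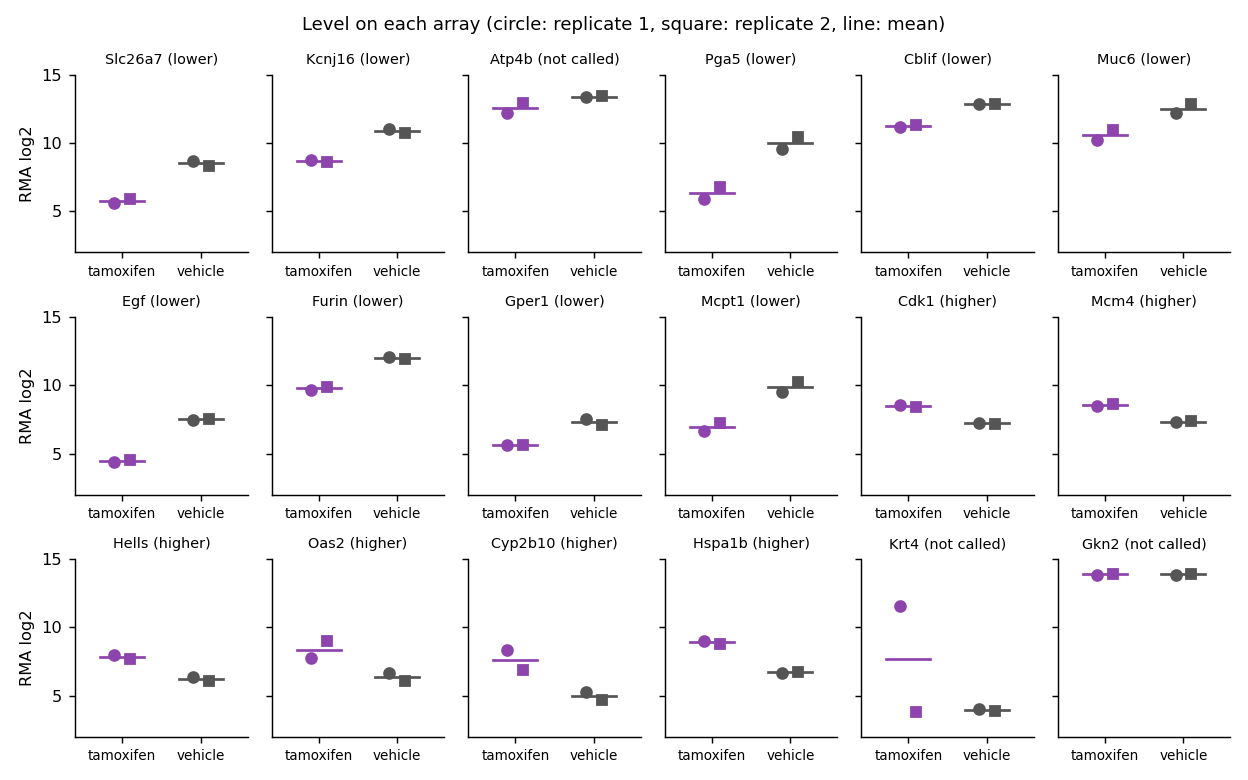
RMA log2 level (vertical axis) of 18 genes on each tamoxifen array and each vehicle array, circles for replicate 1, squares for replicate 2 and lines for the mean of the group. Slc26a7 and Cblif sit lower and Cdk1 and Hspa1b higher with tamoxifen on both arrays, Krt4 is high on tamoxifen 1 alone (11.59, against 3.80 on tamoxifen 2), and Gkn2 differs little on all 4 (13.85 to 13.92).

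Of 18 acid secretion genes of the parietal cell 2 fell and 0 rose. Slc26a7, a chloride and bicarbonate exchanger of the parietal cell membrane, read 5.63 and 5.88 with tamoxifen and 8.68 and 8.34 with vehicle, a fall of 2.75 on the log2 scale (6.74-fold, adjusted p = 0.00205). Kcnj16, a potassium channel subunit, read 8.76 and 8.58 with tamoxifen and 10.99 and 10.72 with vehicle (-2.18 ± 0.17, adjusted p = 0.00205). Both groups were tight and well separated in these genes, and both kept their call in all 9 fits that left out an array. In 17 of the 18 the mean change was below 0, with a median of -0.72 against -0.02 over all genes. Without tamoxifen 1 the median was -0.48, and without tamoxifen 2 it was -1.03.

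The proton pump was not called. It and the other 3 acid secretion genes of this paragraph were chosen for their roles after their values were seen. Atp4b, its beta subunit, read 12.22 and 12.92 with tamoxifen and 13.36 and 13.42 with vehicle (-0.82 ± 0.23, adjusted p = 0.142). Atp4a, its catalytic subunit, read 12.22 and 12.86 with tamoxifen and 13.17 and 13.30 with vehicle (-0.69 ± 0.21, adjusted p = 0.198). The histamine receptor Hrh2 stood at -1.15 (adjusted p = 0.0912), while the carbonic anhydrase Car2 (0.05) and the membrane linker Ezr (-0.04) stood near 0. Within the list the changes ran from -2.75 (Slc26a7) to 0.05 (Car2).

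Genes for lipid entry into cells were among the larger falls, while the list they belong to had a median near 0. Lpl, the lipase that frees fatty acids from lipoproteins, read 7.65 and 8.23 with tamoxifen and 10.55 and 10.18 with vehicle (-2.43 ± 0.23, adjusted p = 0.00379). Cd36, a fatty acid transporter, read 8.25 and 8.15 with tamoxifen and 10.11 and 9.75 with vehicle (-1.73 ± 0.19, adjusted p = 0.00687). The apolipoprotein gene Apoa4 fell by 2.78 and the fatty acid activating enzyme gene Slc27a2 by 1.59. These were 4 of 19 measured members, and the median of the list was 0.06, or -0.00 after quantile normalization. Of 26 respiratory chain genes none was called by limma and the median was -0.15, and of 25 genes of the citrate cycle and fatty acid oxidation none was called and the median was -0.09. Their sign depended on which arrays were compared: without tamoxifen 1 the medians were 0.05 and 0.09, and without tamoxifen 2 they were -0.33 and -0.26. Tamoxifen 1 minus vehicle 1 gave medians of -0.21 and -0.09, and tamoxifen 2 minus vehicle 2 gave -0.13 and -0.10.

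The isolated parietal cells gave a second view of where the called genes are expressed, on arrays that played no part in the calls. Of the 174 genes that fell, 97 (55.7%) were at least 1 unit higher in the parietal fraction than in the remaining cells and 20 (11.5%) at least 1 unit lower, against 6.32% and 6.46% of all genes. Of the 207 that rose, 2 (0.966%) were at least 1 unit higher there and 70 (33.8%) at least 1 unit lower. The median difference was 1.40 for genes that fell, -0.64 for genes that rose and 0.03 for all genes. With 1 array per fraction this has no test. The shares over all genes were not matched for level, while calls came mostly from bright probe sets. Among the named falls with high values in the parietal fraction were Cox7a1, a cytochrome oxidase subunit (4.29), Lrrn1, a membrane protein (3.44), Tmprss9, a serine protease (3.20), and Egf, a growth factor (2.40). Several of the largest falls differed little between the fractions: the calcium-binding protein gene Necab1 stood at -0.39, Gm12888 at -0.29 and the protease inhibitor gene Mug1 at 0.00. A difference near 0 cannot tell expression in both fractions from expression in neither.

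**Figure D3:**
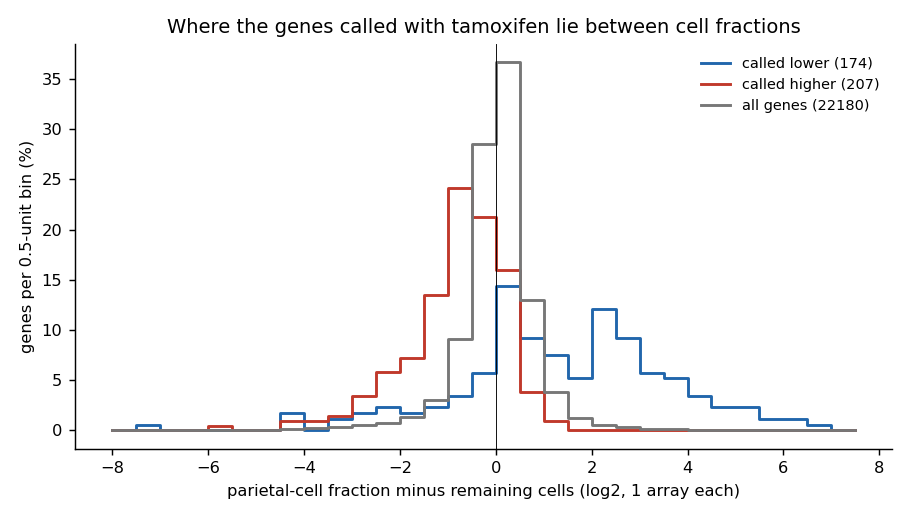
Difference between the parietal-cell fraction and the remaining cells (horizontal axis, log2, 1 array each) and the percentage of genes in each 0.5-unit bin (vertical axis), for genes called lower, genes called higher and all genes. Genes called lower extend to the right (median 1.40) and genes called higher to the left (median -0.64), around a median of 0.03 for all genes.

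Chief cell products fell, 6 of 14 list members against 0 that rose, and in all 14 the mean change was below 0. The median was -0.48. It was -0.79 without tamoxifen 2, -0.78 without vehicle 1, -0.46 without tamoxifen 1 and -0.43 without vehicle 2. Pga5, a pepsinogen gene, read 5.87 and 6.81 with tamoxifen and 9.56 and 10.41 with vehicle, which is 12.5-fold lower (-3.64 ± 0.38, adjusted p = 0.0065). Chia1, an acidic chitinase of the stomach, read 11.01 and 11.11 with tamoxifen and 13.26 and 13.05 with vehicle (-2.10 ± 0.19, adjusted p = 0.0037). Cblif, the gene of intrinsic factor, which carries vitamin B12, read 11.19 and 11.30 with tamoxifen and 12.84 and 12.86 with vehicle (-1.60 ± 0.13, adjusted p = 0.00205).

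Tmed6, a protein of the early secretory pathway, read 7.80 and 8.06 with tamoxifen and 10.04 and 10.05 with vehicle (-2.12 ± 0.19, adjusted p = 0.00373). These 4 genes kept their call in all 9 fits that left out an array. Bhlha15, the transcription factor MIST1 that sets up large secretory stores, read 6.15 and 6.25 with tamoxifen and 7.64 and 7.17 with vehicle (-1.21 ± 0.20, adjusted p = 0.025), and kept its call in 2 of the 9. Pgc, another pepsinogen gene, named after its value was seen, differed little, at 13.75 and 13.66 with tamoxifen and 13.97 and 13.87 with vehicle (-0.21, adjusted p = 0.663). Of 19 genes of folding in the endoplasmic reticulum none was called by limma, with a median of -0.02.

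Digestive enzyme genes best known from the pancreas fell together with the chief cell genes, 5 of 13 in that list with 0 higher. Try4, a trypsin gene, read 7.33 and 6.53 with tamoxifen and 11 and 9.59 with vehicle (-3.36 ± 0.45, adjusted p = 0.0117). Pnliprp1, a relative of pancreatic lipase, read 6.32 and 7.17 with tamoxifen and 9.45 and 8.95 with vehicle (-2.45 ± 0.28, adjusted p = 0.00794). Pla2g1b, a secreted phospholipase, read 12.53 and 12.15 with tamoxifen and 13.29 and 13.40 with vehicle (-1.01 ± 0.17, adjusted p = 0.0247). The lipase genes Pnliprp2, outside the list, and Cel fell by 2.50 and 1.71, and Clps, the lipase cofactor, by 0.82. Gm5409, another predicted gene among the largest falls, fell by 3.46. Trypsin and lipase genes belong to families of near-identical copies, whose probes may share signal.

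The other 8 measured members of the list were not called, and are named here after their values were seen. Cpa1, a carboxypeptidase, read 4.42 and 3.80 with tamoxifen and 4.58 and 3.88 with vehicle, and Cela3b, an elastase, read 3.03 and 3.95 with tamoxifen and 3.20 and 3.81 with vehicle. The carboxypeptidase gene Cpb1 and the trypsin gene Try5 also lay below 4.71 on all 4 arrays, as these did. The chymotrypsin gene Ctrb1 read 5.93 and 6.10 with tamoxifen and 6.05 and 5.65 with vehicle, and its relative Ctrl 4.98 and 5.01 with tamoxifen and 4.87 and 4.80 with vehicle. Prss1, a trypsin gene, read 5.17 and 4.63 with tamoxifen and 6.69 and 5.56 with vehicle (-1.23, adjusted p = 0.224), and Reg1 stood at -0.31. The part of pancreas tissue in these values was not tested. The mean of the 13 genes was 6.09 and 6.24 with tamoxifen and 7.09 and 6.90 with vehicle.

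Of 15 neck mucous and metaplasia markers 1 fell. Muc6, the gel-forming mucin of neck cells, was the called gene: it read 10.22 and 10.94 with tamoxifen and 12.18 and 12.82 with vehicle (-1.92 ± 0.34, adjusted p = 0.0313) and kept its call in 3 of the 9 fits. The median of the list was 0.45, with 11 of 15 above 0. Cd44, the metaplasia marker and hyaluronan receptor, named here after its values were seen, read 8.99 and 7.87 with tamoxifen and 6.93 and 6.90 with vehicle (1.52 ± 0.63, adjusted p = 0.41), so it was higher on both arrays and uneven between them. Of 16 glycosylation genes 2 fell: B4galnt2, which adds a terminal sugar, read 6.04 and 6.90 with tamoxifen and 10.07 and 9.99 with vehicle (-3.56 ± 0.25, adjusted p = 0.00173), and the sialic acid transferase gene St3gal4 read 6.86 and 6.70 with tamoxifen and 8.46 and 8.86 with vehicle (-1.88 ± 0.20, adjusted p = 0.0065).

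Pit mucous cell markers were not called in any of 14 cases by limma, with a median of 0.03. Of 19 endocrine markers 1 rose, Chgb, a granule protein, which read 9.20 and 8.54 with tamoxifen and 7.31 and 7.39 with vehicle (1.52 ± 0.21, adjusted p = 0.0146). The hormone genes of that list were not called. Tuft cell markers had 0 of 12 called by limma and a median of -0.13. Of 19 gland transcription factors 1 was called, Bhlha15. Of 15 stem cell and WNT target genes, with a median of 0.03 (-0.04 after quantile normalization), 1 rose, Tnfrsf19, a receptor of the TNF family, at 8.15 and 8.16 with tamoxifen and 7.24 and 6.88 with vehicle (1.09 ± 0.16, adjusted p = 0.0169).

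Cell division genes rose on both tamoxifen arrays. Of 27 mitosis genes 21 rose and 0 fell, and all 27 had a change above 0, with a median of 1.01. All 27 also had non-overlapping groups, against 27.3% of all genes. Of 24 DNA replication genes 13 rose and 0 fell, with a median of 0.87. The mean level of the mitosis genes was 8.19 and 8.31 with tamoxifen and 7.26 and 7.26 with vehicle, and that of the replication genes was 7.39 and 7.45 with tamoxifen and 6.65 and 6.55 with vehicle. With 1 array left out, between 5 and 13 mitosis genes and between 3 and 7 replication genes were called, while the medians were 1.06 and 0.91 without tamoxifen 1 and 0.96 and 0.84 without tamoxifen 2.

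Among the mitosis genes, Cdk1, the kinase that drives entry into mitosis, read 8.56 and 8.40 with tamoxifen and 7.25 and 7.19 with vehicle (1.26 ± 0.14, adjusted p = 0.00794). Birc5, survivin, read 6.75 and 6.91 with tamoxifen and 5.44 and 5.62 with vehicle (1.30 ± 0.14, adjusted p = 0.0065). Ube2c, which tags cyclins for destruction, read 8.97 and 8.98 with tamoxifen and 7.86 and 7.81 with vehicle (1.14 ± 0.14, adjusted p = 0.01). These 3 kept their call in all 9 fits that left out an array. Top2a, the topoisomerase that untangles chromosomes, read 8.79 and 9.21 with tamoxifen and 7.58 and 7.85 with vehicle (1.29 ± 0.19, adjusted p = 0.0185).

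In DNA replication the helicase subunit gene Mcm4 read 8.50 and 8.61 with tamoxifen and 7.28 and 7.37 with vehicle (1.23 ± 0.14, adjusted p = 0.00862). Its partner gene Mcm6 read 8.67 and 8.91 with tamoxifen and 7.63 and 7.72 with vehicle (1.11 ± 0.14, adjusted p = 0.0105). Prim1, the primase, read 7.78 and 8.06 with tamoxifen and 6.57 and 6.78 with vehicle (1.24 ± 0.16, adjusted p = 0.01). Mcm3 rose by 1.24, and the 3 other genes of the helicase ring, Mcm2, Mcm5 and Mcm7, named to complete the ring, rose by 0.83, 1.10 and 0.92.

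Nucleotide supply had 3 of 19 called, all higher. Rrm2, a subunit of ribonucleotide reductase, read 7.97 and 7.90 with tamoxifen and 6.33 and 6.43 with vehicle (1.55 ± 0.16, adjusted p = 0.0065). Its partner Rrm1 rose by 1.03 and the thymidylate synthase gene Tyms by 0.89. Hells, a chromatin helicase of dividing cells, read 7.95 and 7.67 with tamoxifen and 6.39 and 6.06 with vehicle (1.59 ± 0.17, adjusted p = 0.00687). Cep55, needed for the last cut between daughter cells, read 7.58 and 7.98 with tamoxifen and 6.29 and 6.46 with vehicle (1.40 ± 0.19, adjusted p = 0.0117).

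Cyclins of the G1 phase and their inhibitors gave 1 call. Of 22 none rose and 1 fell, Cdkn1c, the inhibitor p57, which read 5.67 and 5.89 with tamoxifen and 7.35 and 6.85 with vehicle (-1.32 ± 0.22, adjusted p = 0.0266). The median of that list was 0.28. Cyclin D1 (Ccnd1), named after its value was seen, stood at 0.69 ± 0.15 (adjusted p = 0.0688). Of 16 targets of p53 only Tnfrsf10b, a death receptor, rose (1.12 ± 0.19, adjusted p = 0.0292), and the list median was 0.09.

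Cell division promoters are known for a few short motifs, and 3 promoters of genes that rose are printed to show where those letters lie. Sequences are from RefSeq (assembly GRCm38.p6), 250 bases before to 50 after the start of the gene, on the strand of the gene, and 16990 of the measured genes had one. Capitals mark, on either strand, CCAAT (bound by NF-Y) and TTTGAA (the cell cycle homology region) in Cdk1 and Ube2c, and the E2F letters TTTGGCGC, TTTCCCGC, TTTCGCGC or TTTGCCGC in Mcm6. Letters of the other set stayed in lower case: TTTCGCGC also lies in Cdk1, and CCAAT, on the opposite strand, in Mcm6. They are Cdk1 at chr10:69352863-69353162 on the minus strand, Ube2c at chr2:164769679-164769978 on the plus strand and Mcm6 at chr1:128359656-128359955 on the minus strand.
Cdk1: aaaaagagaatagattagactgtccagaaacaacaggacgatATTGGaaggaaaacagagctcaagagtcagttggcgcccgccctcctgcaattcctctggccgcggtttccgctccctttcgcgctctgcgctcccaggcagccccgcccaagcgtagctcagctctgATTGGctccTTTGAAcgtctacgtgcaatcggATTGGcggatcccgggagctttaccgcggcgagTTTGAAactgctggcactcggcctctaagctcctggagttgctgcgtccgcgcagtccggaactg
Ube2c: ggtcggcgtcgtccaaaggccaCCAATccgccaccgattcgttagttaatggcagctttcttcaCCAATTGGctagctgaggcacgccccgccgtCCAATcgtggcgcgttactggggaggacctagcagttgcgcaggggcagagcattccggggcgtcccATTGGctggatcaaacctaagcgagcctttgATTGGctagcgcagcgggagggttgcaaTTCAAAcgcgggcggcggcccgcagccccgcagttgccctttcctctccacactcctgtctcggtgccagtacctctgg
Mcm6: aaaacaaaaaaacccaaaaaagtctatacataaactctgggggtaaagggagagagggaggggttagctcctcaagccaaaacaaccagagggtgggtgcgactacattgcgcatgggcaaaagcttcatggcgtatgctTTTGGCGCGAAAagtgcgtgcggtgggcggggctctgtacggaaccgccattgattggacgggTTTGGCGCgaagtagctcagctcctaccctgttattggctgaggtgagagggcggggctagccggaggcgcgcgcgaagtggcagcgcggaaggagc

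TTTGAA lay in 77.8% of the promoters of called mitosis genes (14 of 18), in 16.7% of those of called replication genes (2 of 12) and in 15.8% of all 16990. The E2F letters lay in 58.3% of those of called replication genes (7 of 12), in 5.56% of those of called mitosis genes (1 of 18) and in 2.93% of all. Counting every measured member with a promoter, called or not, TTTGAA lay in 17 of 23 mitosis genes (73.9%) and 3 of 20 replication genes. On the same count E2F letters lay in 10 of 20 replication genes and 1 of 23 mitosis genes. These shares thus describe the lists and do not set the called members apart. Among all genes that rose, 28.7% had TTTGAA, 15.2% the E2F letters and 51.5% CCAAT, against 38.5% with CCAAT among all promoters. Among genes that fell the shares were 14.3%, 3.01% and 36.8%. The oestrogen response core TCANNNTGA lay in 5.26% of promoters of genes that rose and 3.01% of those that fell, against 6.56% of all, and the letters AAGGTCA bound by oestrogen-related receptors lay in 2.34% and 6.02%, against 4.03% of all. A match is a description of letters within 300 bases, and no binding was measured.

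Of 25 genes for making ribosomes 8 rose and 0 fell, with all 25 above 0 and a median of 0.74. Nop58, a core protein of small nucleolar particles, read 9.53 and 9.89 with tamoxifen and 8.50 and 8.84 with vehicle (1.04 ± 0.17, adjusted p = 0.0245). Nop56, its partner, read 9.64 and 9.86 with tamoxifen and 8.83 and 8.69 with vehicle (0.99 ± 0.16, adjusted p = 0.0226). Dkc1, a pseudouridine synthase, rose by 1.06 and Nop2, an RNA methyltransferase, by 0.99. When 1 array was left out between 0 and 4 of the 25 were called, with a median of 0.85 lacking tamoxifen 1 and 0.60 lacking tamoxifen 2.

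The list of cytosolic chaperones, which also holds mitochondrial members, had 3 of 20 called, all higher. Hspa1b, an inducible HSP70 gene whose near-identical neighbour Hspa1a may share its probes, read 9.02 and 8.79 with tamoxifen and 6.69 and 6.73 with vehicle (2.19 ± 0.31, adjusted p = 0.0155). Hsph1 and the mitochondrial chaperonin gene Hspd1 rose by 0.97 and 0.88. The list median was 0.55, or 0.74 without tamoxifen 1 and 0.37 without tamoxifen 2. None of these calls held in all 9 fits that left out an array. Of 30 proteasome genes none was called by limma, with 29 above 0 and a median of 0.37. That median was 0.23 without tamoxifen 2. In 15 of the 30 the groups did not overlap, which was true of 27.3% of all genes. Of 18 aminoacyl-tRNA synthetases 1 rose, Vars (0.85 ± 0.13, adjusted p = 0.0214), and of 17 amino acid supply genes 1 rose, the serine synthesis gene Psat1 (1.16 ± 0.20, adjusted p = 0.0297).

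**Figure D4:**
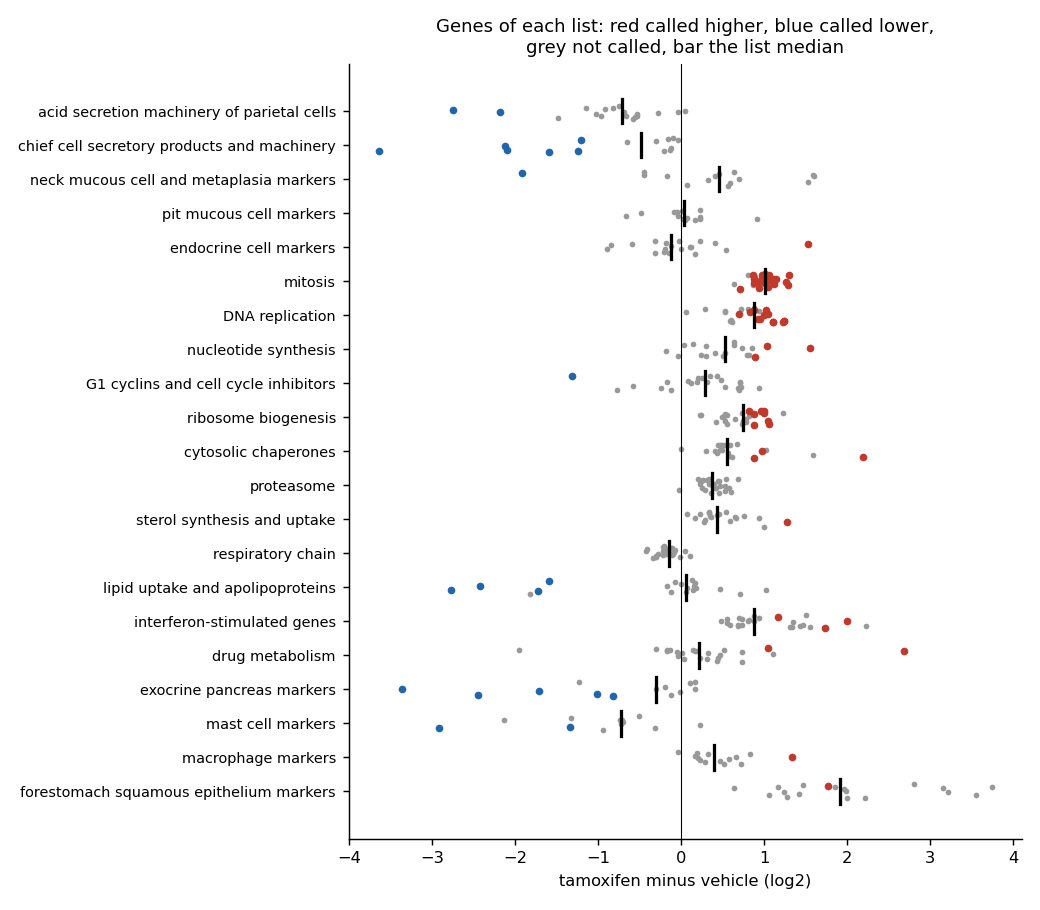
Log2 change, tamoxifen minus vehicle (horizontal axis), of each measured gene of 21 gene lists (1 row each, points spread vertically for legibility), red for called higher, blue for called lower, grey for not called, with a bar at the list median. Mitosis (21 of 27 red, median 1.01) and DNA replication genes cluster to the right of 0, acid secretion genes (median -0.72) to the left, and the wide squamous row has 1 called gene.

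Interferon-stimulated genes were higher on both tamoxifen arrays, and more so on tamoxifen 2. The mean of the 25 genes was 6.92 and 7.68 with tamoxifen and 6.24 and 6.20 with vehicle, and all 25 changes were above 0 with a median of 0.88. Oas2, an antiviral enzyme that senses double-stranded RNA, read 7.73 and 9.0 with tamoxifen and 6.65 and 6.11 with vehicle (1.99 ± 0.35, adjusted p = 0.0313). Oasl2, its relative, read 8.71 and 9.57 with tamoxifen and 7.63 and 7.18 with vehicle (1.73 ± 0.28, adjusted p = 0.0231). Oasl1 rose by 1.16, and no other member was called. Without tamoxifen 1 the median was 1.25, without tamoxifen 2 it was 0.58, and between 0 and 10 members were called when 1 array was left out. The core letters GAAANNGAA of the interferon response element lay in 12 of the 17 promoters available for the 25 genes (70.6%), against 8.09% of all. They lay in 0 of 2 promoters of the called members and in 8.77% of those of all genes that rose.

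Other inflammatory and immediate early genes gave few calls in number, though a larger share than over all genes. The share was 7.69% in the acute phase list and 11.1% in the immediate early list, against 1.72% of all genes. Il1rn, the natural blocker of the interleukin 1 receptor, read 6.61 and 6.86 with tamoxifen and 5.55 and 5.54 with vehicle (1.19 ± 0.23, adjusted p = 0.0445). Saa3, an acute phase gene, read 5.23 and 6.41 with tamoxifen and 3.93 and 4.05 with vehicle (1.83 ± 0.35, adjusted p = 0.0401), and these were the 2 rises among 26 genes of the acute phase list. The chemokine gene Ccl9 rose by 1.55, Slfn2 by 1.55 and the interferon-inducible gene Ifi205 by 1.53. Of 18 immediate early genes Atf3 and Ier3 rose, by 1.09 and 0.95, and the mean of the list was 8.18 and 8.72 with tamoxifen and 8.12 and 7.85 with vehicle, so tamoxifen 1 and vehicle 1 were close.

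Immune cell markers gave few calls, with 7.14% of the macrophage list called, against 1.72% of all genes. Of 14 macrophage markers Lyz2, lysozyme, rose, at 8.93 and 9.83 with tamoxifen and 7.94 and 8.16 with vehicle (1.33 ± 0.27, adjusted p = 0.0499), and the list median was 0.39, or 0.75 without tamoxifen 1 and 0.25 without tamoxifen 2. Lists of neutrophil, T and natural killer, and B and plasma cell markers had no gene called by limma, with medians of -0.07, -0.17 and -0.06. Lists of smooth muscle, neuron and glia, fibroblast, endothelial and adipocyte markers had none either, with medians between -0.14 and 0.39.

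Of 12 mast cell markers 2 fell and 0 rose, with a median of -0.73. Leaving out vehicle 1 gave a median of -1.15, leaving out tamoxifen 2 gave -1.14 and leaving out tamoxifen 1 gave -0.50, and between 0 and 3 members were called with 1 array left out, none in all 9 fits. The mean of the list was 5.34 and 5.82 with tamoxifen and 6.40 and 6.78 with vehicle. Mcpt1, a mast cell protease of mucosal linings, read 6.64 and 7.25 with tamoxifen and 9.49 and 10.23 with vehicle (-2.92 ± 0.43, adjusted p = 0.0169). Kit, the receptor that mast cells and pacemaker cells of the gut wall need, read 7.10 and 7.56 with tamoxifen and 8.80 and 8.55 with vehicle (-1.34 ± 0.20, adjusted p = 0.0169). Mcpt1 read 6.60 and 6.53 with rapamycin plus tamoxifen and 5.71, 4.58 and 5.91 with rapamycin, so both vehicle arrays lay above the other 7 whole-stomach arrays. Kit did not share this pattern: it read 7.28 and 7.06 with rapamycin plus tamoxifen and 8.76, 9.10 and 8.91 with rapamycin. Protease genes of this family are close copies, and their probes may share signal.

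Signalling genes of the gland gave single calls. Egf read 4.40 and 4.56 with tamoxifen and 7.47 and 7.52 with vehicle (-3.01 ± 0.21, 8.08-fold, adjusted p = 0.00173), and it was the only one of 12 EGF family ligands and receptors called. Furin, a protease that matures secreted precursors, read 9.66 and 9.88 with tamoxifen and 12.09 and 11.94 with vehicle (-2.24 ± 0.17, adjusted p = 0.00205). Of 10 hedgehog genes and 17 genes of the BMP and Notch pathways none was called by limma, with medians of 0.02 (-0.03 after quantile normalization) and -0.00. Of 15 genes of the growth kinase complex mTORC1 and its regulators none was called, with a median of 0.07.

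For the drug itself, 12 oestrogen receptor and classical target genes were examined. Gper1, a membrane receptor reported to respond to oestrogen, read 5.59 and 5.59 with tamoxifen and 7.55 and 7.12 with vehicle (-1.75 ± 0.18, adjusted p = 0.0065) and kept its call in all 9 fits. Myb, a transcription factor of progenitor cells and an oestrogen target in breast cells, read 7.46 and 7.76 with tamoxifen and 6.31 and 6.36 with vehicle (1.27 ± 0.20, adjusted p = 0.0203). The other 10 were not called. The oestrogen receptor gene Esr1, named for its role after its value was seen, stood at 5.14 and 5.36 with tamoxifen and 5.44 and 5.45 with vehicle.

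Drug-metabolising genes had 2 of 24 called, both higher: Cyp2b10 and the aldehyde dehydrogenase gene Aldh1a7, which read 8.68 and 8.50 with tamoxifen and 7.47 and 7.64 with vehicle (1.04 ± 0.21, adjusted p = 0.0475). The list median was 0.21. Of 14 antioxidant genes controlled by NRF2 only Srxn1, sulfiredoxin, rose (0.89 ± 0.16, adjusted p = 0.0325), with 13 above 0 and a median of 0.35, which was 0.10 without vehicle 1, 0.18 without tamoxifen 2 and 0.53 without vehicle 2. Akr1b8, an aldo-keto reductase, read 8.66 and 9.27 with tamoxifen and 7.26 and 7.52 with vehicle (1.58 ± 0.22, adjusted p = 0.0146). Cat, the peroxide-destroying enzyme catalase, read 10.55 and 11.02 with tamoxifen and 12.07 and 11.91 with vehicle (-1.21 ± 0.21, adjusted p = 0.0306). In sterol synthesis 1 of 19 was called, Pmvk, a mevalonate pathway kinase, at 8.76 and 8.60 with tamoxifen and 7.38 and 7.43 with vehicle (1.27 ± 0.15, adjusted p = 0.00914), and all 19 changes were above 0. The median of these 19 was 0.43, or 0.76 without vehicle 2, 0.70 without tamoxifen 1 and 0.31 without vehicle 1.

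Among the remaining large rises, several genes encode channels and secreted or surface proteins of epithelia. Vnn1, a pantetheinase that recycles vitamin B5, read 6.03 and 6.61 with tamoxifen and 3.84 and 4.31 with vehicle (2.24 ± 0.25, adjusted p = 0.0074). Guca2b, the gut peptide uroguanylin, read 7.05 and 7.78 with tamoxifen and 5.34 and 5.18 with vehicle (2.15 ± 0.22, adjusted p = 0.0065), and it was the only called gene of 14 intestine markers. Kcne3, a potassium channel subunit, read 8.53 and 8.76 with tamoxifen and 6.27 and 6.51 with vehicle (2.26 ± 0.36, adjusted p = 0.0228).

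The calcium-binding gene S100g rose by 2.19 and the immune checkpoint ligand gene Vtcn1 by 1.63. Krt7, a keratin of simple epithelia, read 7.68 and 8.35 with tamoxifen and 5.93 and 6.53 with vehicle (1.78 ± 0.35, adjusted p = 0.0445). Sprr1a, an envelope protein that belongs to the squamous list, was its only called member and did not follow it: it read 12.21 and 11.94 with tamoxifen and 10.36 and 10.26 with vehicle (1.77 ± 0.31, adjusted p = 0.0288). Without tamoxifen 1 the median of the 18 squamous genes was -0.18, and without tamoxifen 2 it was 3.89.

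Among the remaining large falls, Rnase1, a secreted ribonuclease, read 5.03 and 5.38 with tamoxifen and 8.77 and 8.14 with vehicle (-3.26 ± 0.26, adjusted p = 0.00205). Hamp2, a relative of the iron hormone hepcidin, read 7.60 and 6.57 with tamoxifen and 10.95 and 9.05 with vehicle (-2.92 ± 0.59, adjusted p = 0.0481), with a wide spread in both groups. It was the only called gene of 13 in iron handling. Azgp1, a secreted glycoprotein, read 5.70 and 4.84 with tamoxifen and 7.96 and 6.89 with vehicle (-2.16 ± 0.35, adjusted p = 0.0238).

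Of 23 lysosome and autophagy genes, with a median of -0.09, 2 autophagy genes fell, Gabarapl1 by 0.97 and the starting kinase gene Ulk1 by 0.73, and the lysosomal protease gene Ctsl rose by 0.78. With 1 array left out at most 1 of the 23 was called. Txnip, an inhibitor of the antioxidant thioredoxin, read 10.97 and 11.11 with tamoxifen and 11.87 and 11.76 with vehicle (-0.78 ± 0.15, adjusted p = 0.0372).

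The same drug was also given on top of rapamycin, an inhibitor of mTORC1, on 5 arrays that are in neither group of the comparison above. The fit estimates one spread from all 9 arrays, so both comparisons share that error estimate, and their calls are not independent. Rapamycin plus tamoxifen against rapamycin called 543 genes (2.45%). Of the 381 genes called for tamoxifen alone, 372 (97.6%) changed in the same direction, against 65.8% of all genes, and 253 (66.4%) were also called in that direction. For genes that fell the share also called was 77.6% (135), with medians of -1.12 on the background of rapamycin and -1.21 without it. For genes that rose it was 57.0% (118), with medians of 0.80 and 1.0. The difference between the tamoxifen effects was tested gene by gene, and limma called 0 genes, with 627 at an unadjusted p under 0.05.

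Slc26a7 changed by -2.96 with tamoxifen on the background of rapamycin and Kcnj16 by -2.49, against -2.75 and -2.18 without it. Cdk1 changed by 1.16 and Hells by 1.51. Muc6 differed more, at -0.41 (adjusted p = 0.672) on the background of rapamycin against -1.92 without it. The 9 genes that changed in opposite directions include Mcpt1 (1.17 against -2.92, interaction adjusted p = 0.492), St3gal4 (0.31 against -1.88, interaction adjusted p = 0.223), Txnip (0.16 against -0.78) and Hsph1 (-0.10 against 0.97). St3gal4 read 6.44 and 6.04 with rapamycin plus tamoxifen and 6.05, 5.97 and 5.76 with rapamycin, so here too both vehicle arrays lay above the other 7.

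**Figure D5:**
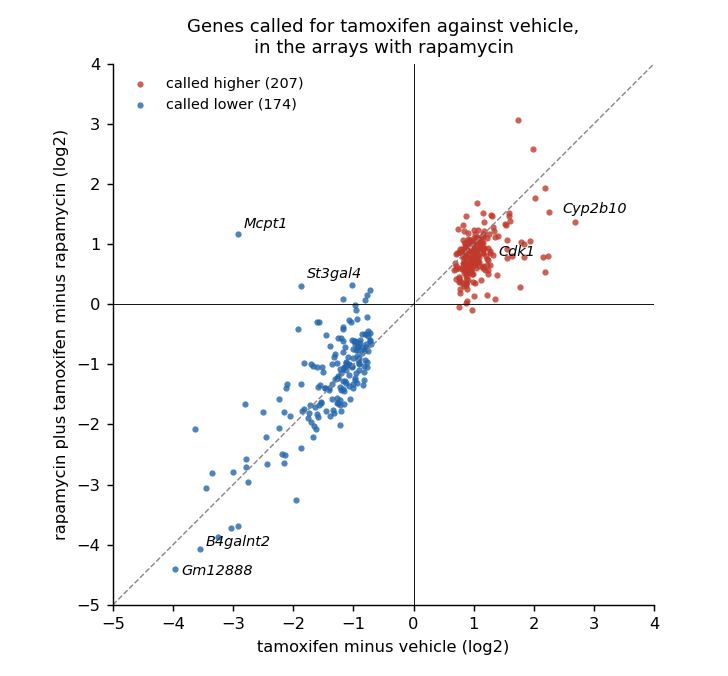
For the genes called for tamoxifen against vehicle, that log2 change (horizontal axis) against the log2 change of rapamycin plus tamoxifen minus rapamycin (vertical axis), red for called higher and blue for called lower, with a dashed line of equal change. Of 381 genes 372 have the same sign on both axes, and Mcpt1 (-2.92 and 1.17) lies farthest from the line.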

How the data were processed

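The authors deposited log2 expression values per probe set, made with RMA in Partek per the submitters' processing notes, whose versions, settings and genome build the sources used here do not state. The table held 41345 probe sets on 11 arrays. GEO's platform annotation paired 25335 with a gene (23521 with 1 symbol, 1814 with several), and the other 16010 had none. By gene ID 23328 matched RefSeq (GRCm38.p6). Each of 22180 genes was represented by its brightest probe set, judged by the mean of the 9 whole-stomach arrays, and dim probe sets were kept. The fraction arrays (medians 3.67 and 3.68) looked normalized apart and were compared only with each other.

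The model was limma's (version 3.58.1, R 4.3.3), with 1 mean per whole-stomach group (4 groups, 5 residual degrees of freedom, prior 3.86), and adjusted by Benjamini-Hochberg over all genes. With 2 arrays a group, their number limits the precision. Data were simulated for the same genes and arrays, with independent normal noise of the fitted spread. They recovered 60% of changes of 1 unit and 96% of changes of 2 units among 200 changed genes, with 11 false calls. The simulation held no deviations shared between arrays and no squamous difference, so these rates may not hold for the real arrays.

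The members and 53 gene lists (901 of 962 entries measured, 4 through a synonym) were chosen with earlier results of these data known, so a list's direction is no independent support. Named genes were the 24 largest called changes each way with non-overlapping groups, up to 4 called members per list (2 of highest mean where none was called), the 10 brightest called genes and the 6 widest gaps between tamoxifen arrays. Additions are marked. No set test was run. Alternatives were normalization, a filter on level, averaging the probe sets of a gene, a trended robust prior, only the 4 arrays compared, the squamous mean as a covariate, a replicate block and leaving out each array.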

Additional observations from a re-analysis of the deposited data

How the results depend on the processing

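The number of calls, 381 (207 higher, 174 lower), moved with the arrays and the model used. Quantile normalization gave 389 calls and median centring 304. Restricting to genes above the median level gave 711 (414 and 297), and the squamous mean as a covariate 197 (95 and 102). Fitted on only the 4 tamoxifen and vehicle arrays, limma called 0 genes, with 1318 at an unadjusted p under 0.05, against 2423 in the fit on 9 arrays. Leaving out 1 array gave between 95 and 213 calls (40 to 128 higher, 55 to 123 lower), with the lone array of a group assumed to vary like the other groups. The labels name no pairing by replicate number. Deviations from the group mean correlated at 0.56 for tamoxifen 1 and vehicle 1 and at -0.11 for the lowest other pair of groups. Arrays of the same number thus deviated alike in the 2 groups compared, but not in every pair of groups. The fit with the replicate number as a block called 170 (73 and 97). Chosen after seeing the data, a block on the tamoxifen and vehicle arrays alone called 1040 (612 and 428), which held all 381, leaving out tamoxifen 1 and vehicle 1 together called 36 (15 and 21), and leaving out tamoxifen 2 and vehicle 2 together called 105 (20 and 85). The cause of these differences was not tested. Of the 96 named genes that were called, 90 kept their call under quantile normalization, 80 under median centring, 66 with the squamous covariate and between 37 and 66 with 1 array left out. No named gene that was called in either fit changed direction. The share of called genes with the same sign beside rapamycin lay between 95.9% and 98.6% in the settings that gave a value.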
